A study of Mus musculus with 35 samples.

Results

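Trimethylation of histone H3 at lysine 27 (H3K27me3) was mapped in mouse macrophages that had been given lipopolysaccharide (LPS), the endotoxin of Gram-negative bacteria, for 480 min or for 60 min followed by a 7 h delay. The cells were bone-marrow-derived macrophages in primary culture from wild-type female C57BL/6 mice aged 8 to 12 weeks, and chromatin was precipitated with a Millipore antibody against H3K27me3 and sequenced (ChIP-seq). The members are the regions listed as enriched in these libraries, chosen by title: 1 library carries 480 min of LPS and the other carries 60 min with a 7 h delay. Both give 480 min as the time after LPS in their labels, and both titles open with the same date. The labels do not say whether LPS was removed after 60 min, nor whether the cells came from different mice or cultures.

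The list at 480 min held 4648 regions and the list at 60 min with the delay held 4707, together 9355 of the 250088 regions in the 35 samples of the series. The other samples covered 6 targets in unstimulated and LPS-treated cells: H3K27me3, RNA polymerase II (Pol II), histone H4 acetylation (H4ac), ATF3, a stress-induced transcription factor, and p50 and p65 of NF-κB. With 1 library for each condition there is no replicate error and no test of the difference between the conditions. The 95% Wilson intervals below cover counting error over regions only, and neighbouring regions of 1 library are not independent.

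H3K27me3 is written by Polycomb repressive complex 2 through its catalytic subunit EZH2 or EZH1, and it is bound by chromobox proteins of Polycomb repressive complex 1. It marks silent developmental genes and genes of other lineages, often in blocks that run over several genes. The mark is removed by the demethylases KDM6A and KDM6B, and the gene for the latter, also called Jmjd3, is induced by LPS in macrophages. The comparison sets the map of this silencing mark at a title time of 480 min beside that at a title time of 60 min with a delay, both 480 min after LPS per the labels.

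The lists were alike in size and shape. Regions ranged from 100 bp to 70.92 Mb in both, with a median width of 29410 bp at 480 min and 29290 bp with the delay. Regions up to 100 kb numbered 3465 at 480 min (74.5% of that list) and 3556 with the delay (75.5%). Smaller regions lie inside larger ones in these files, so all base pairs were counted once. Regions of every width covered 670.5 Mb at 480 min and 630.6 Mb with the delay, whereas regions up to 100 kb covered 87.4 Mb and 91.3 Mb. The ratio of covered base pairs, 480 min to delay, was thus 1.063 over every width and 0.957 up to 100 kb, and its direction depended on the width limit. The other H3K27me3 lists were of 4280 regions (unstimulated), 2687 (120 min) and 2945 (240 min). The 240 min and 120 min libraries share a title date, and the unstimulated library has a date of its own, so date and time of LPS cannot be told apart across these 5 lists. Within the pair compared here the title date is the same.

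The target named by the label was set against the active marks of the series. Of the joined H3K27me3 regions up to 100 kb, 5.88% at 480 min and 5.75% with the delay touched H4ac held by both 240 min libraries, against 82.3% of Pol II regions held by both 240 min libraries. The median widths of these sets were near each other, at 17670, 18170 and 20655 bp. Gene positions on the build of these files were not used here, so the macrophage identity of the cells was not checked by marker genes, and regions are given by coordinates (mm9) without gene names.

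Most H3K27me3 regions were found under both exposures. Joining the regions up to 100 kb of both lists wherever they overlapped by at least 1 bp gave 3299 merged regions. Of these, 2315 were in both lists (70.2%, 95% interval 68.6 to 71.7%). The 480 min list alone held 447 (13.5% of the merged regions) and the list with the delay alone held 537 (16.3%). Over regions of every width, 1902 of 2150 merged regions were in both lists (88.5%), 110 were only in the 480 min list (5.12%) and 138 only in the list with the delay (6.42%). Single-list regions were therefore somewhat more frequent in the list with the delay at both settings. With regions up to 10 kb the order was the opposite, with 424 for 480 min and 392 for the delay, so neither exposure had more regions of its own under every width limit.

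Regions held by 1 list scored lower than matched ones, at a similar or greater median width. The score is the authors' own value for each region, and regions were ranked by it within a list. Scores of different lists are printed side by side below, but may not be on a common scale. Widths and scores were compared within each list, before the lists were joined to each other, since a region joined across lists is wider by construction. At 480 min the median best score was 0.801 for the 2767 regions touched by the other list and 0.259 for the 447 that were not. With the delay it was 0.80 for 2782 touched regions and 0.263 for the 537 others. Median widths were 17720 bp for touched and 17400 bp for untouched regions at 480 min, and 17770 and 20880 bp with the delay. Both single-list sets thus sat low in their own lists, and by nearly the same amount. The shared fraction was 69.6% for merged regions of 1 to 10 kb, 68.7% for 10 to 30 kb and 71.2% for 30 to 100 kb, but 30.8% (21.6 to 41.7%) for the 78 merged regions of at most 1 kb. All 113 merged regions that passed 100 kb after joining were in both lists; regions of that width arise here only by joining.

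The share of regions matched in the other list rose with the score. Each list was split into 10 equal bins by score. In the lowest bin of the 480 min list, 63.7% of joined regions up to 100 kb touched a region of that width in the list with the delay (95% interval 58.3 to 68.7%), and in the highest bin 97.2% did (94.8 to 98.5%). For the list with the delay the shares were 56.9% (51.6 to 62.1%) in the lowest bin and 97.9% (95.7 to 99%) in the highest. Over the whole lists the shares were 86.1% and 83.8%. When a region of any width in the other list counted as a match, the lowest bins reached 86% and 81.6%, and every bin from the fifth upward was at 98.8% or more in both lists. Median widths in the lowest bins were 22535 and 23135 bp, against 18600 and 20165 bp in the highest, so the poorly scored regions were not the narrower ones.

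**Figure D1:**
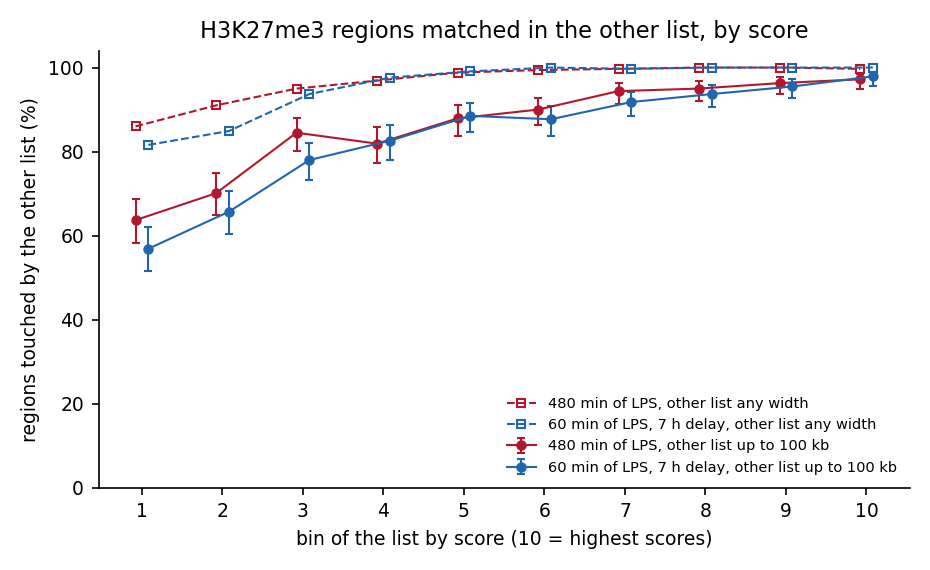
Share of joined H3K27me3 regions up to 100 kb in each of 10 bins of a list by score (x axis, bin 10 highest) that touched the other list (y axis, %). Filled circles with 95% Wilson bars count regions of the other list up to 100 kb and open squares those of any width; the shares run from 63.7% to 97.2% at 480 min and from 56.9% to 97.9% with the delay.

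Most regions counted as held by 1 list lay inside, or touched, a wider enriched region of the other. Of the 447 regions of the 480 min list alone, 339 (75.8%) touched a region over 100 kb of the list with the delay, and 331 were covered to at least 50% by one. Of the 537 regions of the list with the delay alone, 393 (73.2%) touched a region over 100 kb of the 480 min list, and 391 were covered to at least 50%. The narrowest such region was 100 to 200 kb wide for 182 of the 339 (53.7%) and for 170 of the 393 (43.3%). Its median width was 187 kb and 227 kb. It was over 1 Mb wide for 49 and 33, where the match says little about the place itself. By the definition of these sets any counterpart was over 100 kb wide, so its greater width is not a result. Regions of every width covered 670.5 Mb at 480 min and 630.6 Mb with the delay. The share of shared regions that touched a region over 100 kb was not counted. Whether 75.8% and 73.2% differ from that share is therefore not known.

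The best-scored single-list regions were all but 1 of this kind. The first in the 480 min list was chr15:102763291-102847590 (84300 bp, score 2.6559), which lay within chr15:102739131-102970590 of the list with the delay (231460 bp, score 2.6071). It also lay in wider regions of the unstimulated, 120 min and 240 min lists, and no H4ac, Pol II, p50, p65 or ATF3 library had a region in it. The second, chr18:38755581-38832160 (76580 bp, score 2.5530), lay at a region of 101610 bp with a score of 2.6279 in the list with the delay. The third was on chromosome Y and is given below. The fourth, chr18:75087431-75128420 (40990 bp, score 2.3815), lay within a region of 147320 bp with a score of 2.2404 in the list with the delay, and 6 of the 8 H4ac libraries and 6 of the 7 Pol II libraries had a region there. The fifth was chr13:55924331-56015360 (91030 bp, score 2.3749), within chr13:55922311-56068100 of the list with the delay (145790 bp, score 2.2904). At this place all 3 of the other H3K27me3 lists also had a wider region. In the other direction, chr15:80443261-80534290 led the list with the delay (91030 bp, score 2.1725), within chr15:80427401-80534390 of the 480 min list (106990 bp, score 2.1335). At that place 7 of the 15 p50, p65 and ATF3 libraries had a region. The second was chr13:56347101-56364370 (17270 bp, score 2.1278), within a 480 min region of 114490 bp with a score of 1.8771. The third was chr2:6197021-6210500 (13480 bp, score 2.0147), within a 480 min region of 104460 bp with a score of 1.5713. The fourth was chr6:29336791-29395940 (59150 bp, score 1.8810), within a 480 min region of 123860 bp with a score of 1.7662. The fifth was chr17:36277831-36376350 (98520 bp, score 1.8447), within a 480 min region of 105970 bp with a score of 1.7557, and 4 of the 8 H4ac libraries and 2 of the 7 Pol II libraries had a region there. All 10 best-scored regions of the list with the delay alone, and 9 of the 10 of the 480 min list alone, touched such a wider region of the other list. The exception was a stretch of 830 bp on chromosome Y, chrY:2631531-2632360 (score 2.3932).

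**Figure D2:**
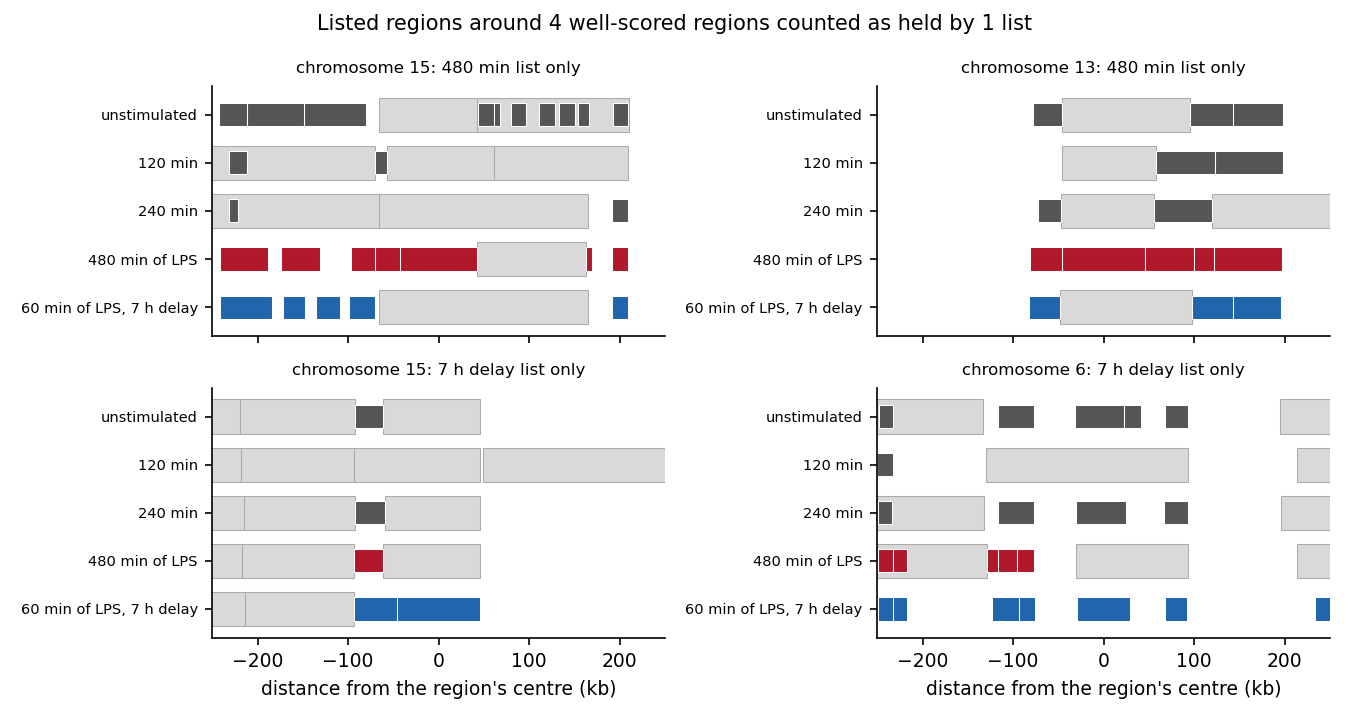
Listed regions (boxes) in the 5 H3K27me3 lists around 4 well-scored regions counted as held by 1 list, by distance from the region's centre in kb (x axis). Coloured and dark boxes are regions up to 100 kb and pale grey boxes are wider ones; in each panel the list without the region has a grey block over the centre, such as the 231460 bp block on chromosome 15 in the list with the 7 h delay.

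The widest single-list regions under the limit mostly touched a region over it, the only kind of counterpart they could have by definition. The 5 widest of the list with the delay alone measured 99530 to 99970 bp, and each touched a region of 103150 to 791600 bp in the 480 min list. Of the 5 widest of the 480 min list alone, 96980 to 99430 bp, 4 touched a region of 104990 to 363430 bp in the other list. The fifth, chr13:20705381-20803930 (98550 bp, score 0.1398), met no region of any width in any of the other 4 H3K27me3 lists. At the limit itself, the widest region kept was 99730 bp at 480 min and 99970 bp with the delay, and the narrowest left out was 100050 and 100090 bp.

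Few regions had no counterpart of any width. In the 480 min list they numbered 108 of the 3299 merged regions (3.27%), and in the list with the delay 144 (4.36%). Their median widths were 5490 and 8885 bp and their median scores 0.141 and 0.145, lower than those of the single-list regions with a wider counterpart (0.346 and 0.363). The nearest region of the other list was within 10 kb for 21 of the 108 and for 29 of the 144, and the median distance was 167.9 kb and 94.1 kb. Regions of the unstimulated list, of any width, touched 50% of the first set and 51.4% of the second. None of the 3 other H3K27me3 lists touched 40 of the 108 (37%) and 44 of the 144 (30.6%).

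The best-scored of these regions are named here because their values stood out. Besides the stretch on chromosome Y, the 480 min list had chr4:61868681-61870280 (1600 bp, score 1.0750), where the unstimulated list also had a region (score 0.2886) and the 120 and 240 min lists had none. At chr2:181651781-181667040 (15260 bp, score 0.7973) the unstimulated and 240 min lists had regions too, as did 1 of 7 Pol II libraries and 9 of the 15 p50, p65 and ATF3 libraries. A further one was chr2:93697601-93747040 (49440 bp, score 0.7441), present in the 240 min list with a score of 1.1528. The list with the delay had chr10:80804951-80806700 (1750 bp, score 1.0826), followed by chr10:53469631-53471860 (2230 bp, score 0.7045) and chr8:73654041-73655910 (score 0.6910). The unstimulated list had a region up to 100 kb at all 3 of these places, with scores of 0.4604, 0.0284 and 0.4257, and the 120 and 240 min lists had none of that width. So each of the regions named in this paragraph to this point was also in the unstimulated list. The next by score were chr11:103871921-103956590 of the 480 min list (score 0.6127) and chr8:87531901-87538250 of the list with the delay (score 0.5312). At both places the unstimulated list had no region up to 100 kb, only a wider one.

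By the Jaccard index, the lists at 480 min and at 60 min with the delay overlapped most among the pairs of H3K27me3 lists. This index, the base pairs in both lists divided by those in either, was 0.534 up to 100 kb and 0.719 over every width. The next pairs up to 100 kb were 120 min with 240 min, which share another title date, at 0.495, and the unstimulated list with either of the late lists, at 0.471 each. The lowest was 120 min with the delay list at 0.342. Lists of unequal size limit the index, since it cannot exceed the ratio of their covered base pairs. That ratio was 0.518 for this lowest pair and 0.957 for the 2 late lists. Over every width the unstimulated list had a Jaccard index of 0.654 with the 480 min list and 0.661 with the list with the delay. Of the base pairs up to 100 kb, 62.2 Mb were in both late lists, 71.2% of the 480 min list and 68.1% of the list with the delay. The shorter 120 and 240 min lists had 74.2 to 75.3% of theirs in either late list. In the other direction the shares were 38.7 to 43.5%. The 2 pairs that share a title date had the highest 2 values up to 100 kb. Over every width 120 min with 240 min, at 0.609, fell below 3 pairs of different dates, the unstimulated list with either late list and 240 min with the delay list (0.627). The parts of the date and of list length in these values were not tested.

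**Figure D3:**
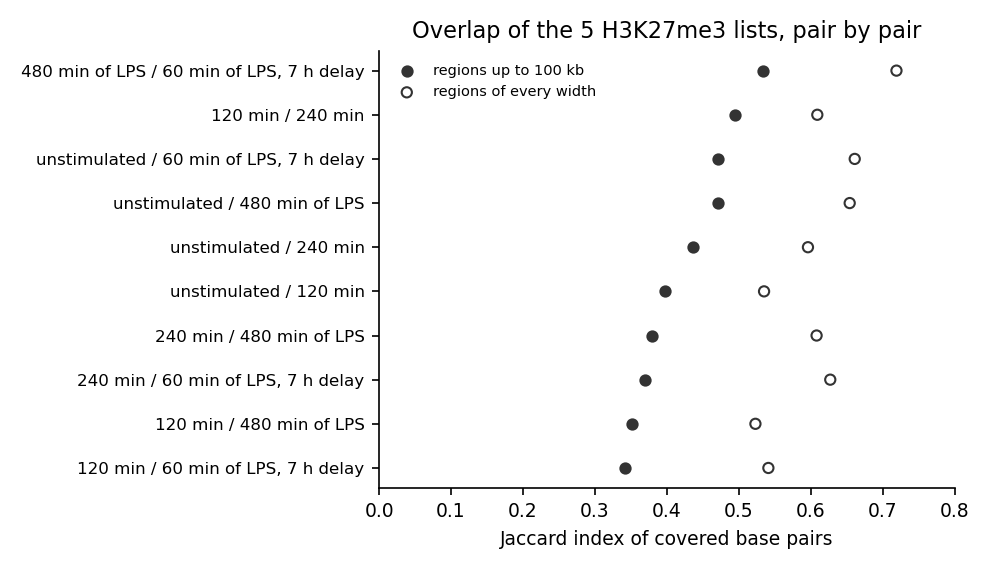
Jaccard index of covered base pairs (x axis) for the 10 pairs of H3K27me3 lists (y axis), for regions up to 100 kb (filled) and of every width (open). The pair of 480 min and 60 min with a 7 h delay is at the top, at 0.534 and 0.719.

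Scores followed the same order in both lists. Across the 2315 shared regions the best scores had a Spearman's rho of 0.919, given as a description across regions, which are not independent. Among the other 9 pairs of lists rho was 0.843 to 0.890, over 1199 to 2079 shared regions each. The median difference in within-list percentile was 5.31 points, and 124 of the shared regions (5.36%) differed by over 25 points. Of these, 74 ranked higher at 480 min and 50 ranked higher with the delay. By mean rank, the best-scored shared region was chr7:151550911-151660680 (109770 bp after joining), with a score of 3.0433 at 480 min and 2.9715 with the delay. Its scores in the unstimulated and 120 min lists, 3.0661 and 2.7555, and at 480 min were the top of those lists, while the top of the list with the delay was a region on chromosome Y (5.2061). None of the libraries for the other targets had a region in the one on chromosome 7. The second was chr3:87995411-88061780, with 2.8202 and 2.8525, and the third was chr8:114198921-114279410, with 2.8039 and 2.8876. The fourth was chr10:42262381-42315270, with 2.7614 and 2.7415, and the fifth was chr15:7068481-7285420, with 2.8030 and 2.7409. The 10 best shared regions were 52890 to 216940 bp wide after joining. In all 3 other H3K27me3 lists, 9 of them were overlapped by a region up to 100 kb. For the fifth, the score in the 240 min list was 0.0002, the lowest of that list.

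**Figure D4:**
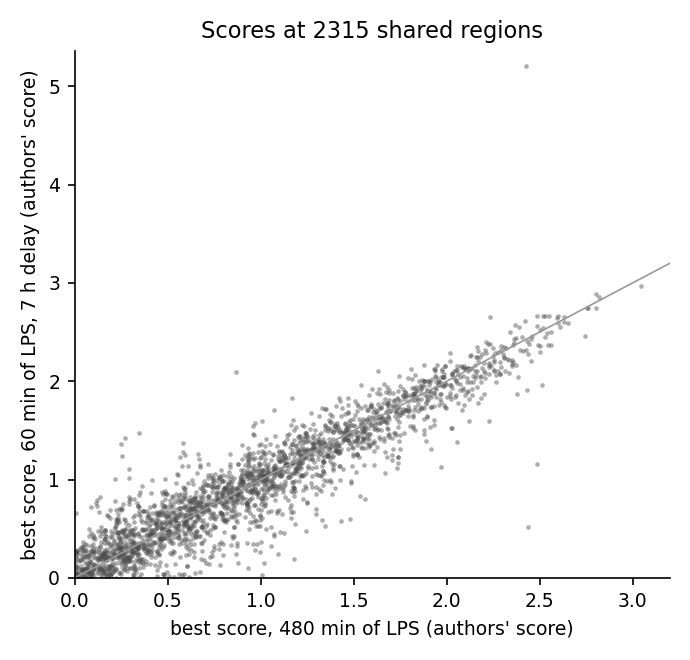
Best score at each of the 2315 shared regions up to 100 kb, at 480 min (x axis) and at 60 min with a 7 h delay (y axis), in the authors' units, with the line of equal values. Points gather along the line (Spearman's rho 0.919); the point at 5.2061 is a region of 140 bp on chromosome Y.

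The 5 shared regions with the largest difference in rank in each direction are described here after their values were seen. Ranked higher at 480 min, chrX:166432011-166432710 (700 bp) had a score of 2.4375 at 480 min and 0.5126 with the delay. At chr2:130520891-130524990 (4100 bp) the score was 1.1786 at 480 min, the 64.6th percentile, and 0.1909 with the delay, percentile 9.09. At chr1:57025931-57027880 (1950 bp) it was 1.0087 and 0.0312, while the unstimulated, 120 min and 240 min lists had 0.7759, 1.6492 and 1.5342. The others were chr13:113997031-114004270 (7240 bp), with 1.0190 and 0.1503, and chr7:107044481-107067580 (23100 bp), with 1.0946 and 0.2397. Ranked higher with the delay, chr3:19594111-19597090 (2980 bp) had 0.2724 at 480 min and 1.4261 with the delay, and chr14:115491361-115494060 (2700 bp) had 0.2481 and 1.3567. The unstimulated list gave 0.8031 and 1.1375 at these places. Next were chr8:129562641-129673900 (111260 bp after joining), with 0.3465 and 1.4734, and chr3:108251391-108341770 (90380 bp), with 0.2529 and 1.2359. At chr1:172993121-173027900 (34780 bp) the score was 0.8667 at 480 min and 2.0903 with the delay, against 1.0594 unstimulated. Of these 10 regions 6 were under 10 kb wide and 4 were wider. With 1 library each the spread of such a value is not known.

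The edges of matched regions lay a median of under 1 kb apart. For 1897 regions up to 100 kb that matched 1 to 1, the median ratio of widths, 480 min to delay, was 0.994, with quartiles of 0.859 and 1.153. The region was wider at 480 min in 905 cases, wider with the delay in 985 and of equal width in 7. It was over 2 times as wide at 480 min in 155 cases and over 2 times as wide with the delay in 178. The median offset was 820 bp at the start and 790 bp at the end, and both edges lay within 1 kb of each other in 670 regions (35.3%). For the unstimulated list against each late list, both edges were within 1 kb in 35.1% and 33.9% of 1728 and 1704 matched regions. For 120 min against 240 min they were in 28.8% of 1054. Widths therefore showed no common shift between the exposures.

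The shared regions were largely those marked before LPS. The unstimulated list held 85.5% of them (84 to 86.9%), the 120 min list 57.8% and the 240 min list 63.6%. All 3 held 1162 of the 2315 (50.2%) and none held 268 (11.6%). Of the regions of the 480 min list alone, the unstimulated list held 34.5% (30.2 to 39%), the 120 min list 13.9% and the 240 min list 17.2%. Of those of the list with the delay alone, the same lists held 35.2% (31.3 to 39.3%), 13.2% and 18.6%. None of the 3 held 55.7% and 55.9% at widths up to 100 kb. With regions of any width in the earlier lists, none of the 3 touched 45 of the 447 (10.1%, 7.61 to 13.2%) and 50 of the 537 (9.31%, 7.13 to 12.1%). Most single-list regions were thus touched by some region of an earlier list. Regions of every width covered 691.7, 636.7 and 683.0 Mb in the unstimulated, 120 min and 240 min lists, the widest being 70.92, 58.16 and 70.95 Mb. A touch by so wide a region says little about the place itself, and the share for shared regions was not counted at this setting. The sets held by 1 exposure were thus held by the earlier lists at nearly the same shares, with intervals that overlap for every list.

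**Figure D5:**
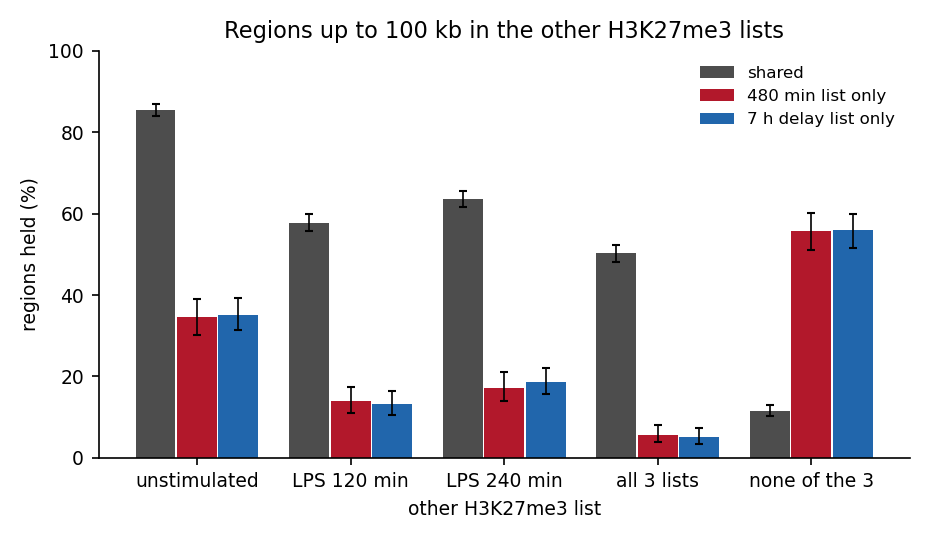
Share of merged regions up to 100 kb (y axis, %) that the unstimulated, 120 min and 240 min H3K27me3 lists held, and the share held by all 3 or by none (x axis), with 95% Wilson bars. Shared regions reached 85.5% in the unstimulated list, and both single-list sets were near 35% there.

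Read from the unstimulated list forward, most marked regions were kept in both late lists. The regions up to 100 kb of all 5 lists were joined into 3294 regions for this count. Of the 2301 that the unstimulated list held, 1819 (79.1%) were in both late lists, 112 (4.87%) only in the 480 min list, 136 (5.91%) only in the list with the delay and 234 (10.2%) in neither. Of the 1105 held by the unstimulated, 120 min and 240 min lists, 1068 (96.7%) were in both late lists, 11 only in the 480 min list and 16 only in the list with the delay. Of the 817 held by none of those 3 lists, 268 were in both late lists, 249 only in the 480 min list and 300 only in the list with the delay. Regions listed in unstimulated cells and at both earlier times were thus nearly all found after either exposure. Regions in none of those lists were shared between the exposures in 32.8% of cases (29.7 to 36.1%). By construction each of them was in at least 1 late list, whereas the 1105 include 10 in neither. The 32.8% and the 96.7% thus have unlike bases. The late lists were longer than the 120 and 240 min lists, and the part of list length in these counts was not tested.

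Active chromatin marks touched a minority of the regions in each set, and how many depended on width and on the library. H4ac held by both 240 min libraries, the latest time measured for it, touched 8.08% of shared regions, 6.71% of those of the 480 min list alone and 6.33% of those of the list with the delay alone. Over regions of every width 240 min H4ac touched 31% of shared regions, and with H4ac of either 240 min library it touched 15.8% of those up to 100 kb. Taken by library, the 8 H4ac lists touched 7.52 to 18.1% of shared regions, 5.37 to 16.3% of those of the 480 min list alone and 5.4 to 13% of those of the list with the delay alone. H4ac held by both libraries of unstimulated cells touched 11%, 8.95% and 8.38%. Wider regions were touched more often: among regions of 30 to 100 kb the shares for 240 min H4ac were 13.9%, 13.8% and 11%, and among those of 1 to 10 kb 1.85%, 1.39% and 1.84%. Pol II held by both 240 min libraries touched 4.19% of shared regions, 1.79% of those of the 480 min list alone and 3.72% of those of the list with the delay alone. Taken by library, the 7 Pol II lists touched 1.57 to 4.03% of regions of the 480 min list alone and 1.3 to 4.66% of those of the list with the delay alone, and these ranges overlap. No library of H4ac or Pol II at 480 min or with the delay was analysed here.

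The transcription factor lists touched few regions of each set. These lists were short, at 209 to 3761 regions used, against 11842 to 23518 for H4ac. Shares outside H3K27me3 regions were not counted, so the values do not show whether binding was sparse within them. The 3 ATF3 libraries touched 2.72 to 5.57% of shared regions, 4.03 to 6.49% of regions of the 480 min list alone and 2.98 to 5.21% of those of the list with the delay alone. For the 7 p50 libraries the ranges were 0.994 to 2.98%, 1.34 to 4.03% and 1.12 to 3.17%. For the 5 p65 libraries they were 0.691 to 4.62%, 1.34 to 4.47% and 0 to 3.72%. A larger share of the 480 min list alone than of the list with the delay alone was touched by 3 of 3 ATF3 libraries. The same held for 6 of 7 p50 and 4 of 5 p65 libraries, and also for 7 of 8 H4ac and 3 of 7 Pol II libraries. Among regions over 1 kb it held for 3 ATF3, 4 p50, 4 p65, 6 H4ac and 4 Pol II libraries. For ATF3 those shares were 5.38% and 4.8%, 3.67% and 2.88%, and 5.62% and 3.07%. In some p50 and p65 libraries the touched regions of the 480 min list alone were largely at most 1 kb wide. A p65 library at 120 min touched 17 regions of the 480 min list alone (3.8%), 16 of them at most 1 kb wide, and 4 of the list with the delay alone (0.745%). Among regions over 1 kb it touched 1 of 409 and 1 of 521. Of the unstimulated p50 libraries, letter A touched 16 and 6 and letter C 14 and 7, with 10 of the 16 and 10 of the 14 at most 1 kb wide. The unstimulated p65 library touched 6 and 0, with 4 of the 6 at most 1 kb wide.

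The shared fraction varied by chromosome, most of all on chromosome X. The share of merged regions up to 100 kb in both lists ran from 60.2% on chromosome 12 (52.6 to 67.4%) to 81.9% on chromosome 17 (73.9 to 87.8%) among the autosomes. On chromosome X it was 47.5% (32.9 to 62.5%), with 19 shared regions, 8 of the 480 min list alone and 13 of the list with the delay alone. The base pairs of chromosome X covered by regions of every width nevertheless had a Jaccard index of 0.947, the highest of all chromosomes. Both lists held 1 block of 70.9 Mb there, chrX:33244491-104163110 at 480 min and chrX:33242381-104163800 with the delay. The unstimulated and 240 min lists held a block of about the same extent. The next widest regions were also common to both late lists, on chromosome 1 (35.4 and 35.3 Mb), chromosome 9 (28.5 and 28.6 Mb) and chromosome 8 (28.0 Mb in each).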

How the data were processed

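H3K27me3 ChIP-seq, with single-ended reads of 36 cycles per the labels' protocols, is given as lists of enriched regions on mm9, per the submitters' processing notes. Aligner, caller and settings were not given in the sources used here, and read depth is unknown. Each deposited list gives a chromosome, start, end, scale and score. The score is the authors' own, and regions were ranked by it within each list. Its scale was not stated in the sources used here. Scores of different lists printed side by side may therefore not be on a common scale. Coordinates fall on steps of 10 bp and are printed counting from 1. Regions up to 100 kb (H3K27me3, Pol II) or 10 kb (other targets) were used, and every width separately. Lists were joined where regions overlapped by at least 1 bp; a merged region is held by a list that overlaps it. Jaccard indices count each base pair once. Scores per merged region are the best in each list. Python 3.11.15, numpy 2.4.6, pandas 2.3.3 and scipy 1.17.1 were used, and the counting was tested on simulated lists. Regions in full are the best-scored and the widest of each set, within-list ranks averaged for shared ones; others are said to be chosen after their values were seen. The members and lists were chosen with earlier results of these data known. Gene lists and cell type markers were not used here. With 1 library for each exposure no test was run.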

Additional observations from a re-analysis of the deposited data

How the results depend on the processing

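No paired analysis was possible because each exposure had 1 library with no replicate label, and for the same reason no library could be left out. The ratio of covered base pairs was 0.957, and it reversed to 1.063 with regions of every width. It was 0.996 up to 10 kb, 0.904 in the better-scored 50% of each list, 0.987 with lists of equal length, 0.937 with only regions that hold no smaller region and 0.960 without chromosomes X and Y. The count held by the 480 min list alone minus that of the list with the delay alone, -90, reversed to 32 up to 10 kb. It was -28 over every width, -39 in the better-scored 50%, -26 with lists of equal length and -36 where a wider region of the other list counted as a match. Over every width, in the better-scored 50% and with wider matches, the 480 min list alone held 110, 229 and 108 regions and the list with the delay alone 138, 268 and 144. Shared regions numbered 987 up to 10 kb and 1319 in the better-scored 50%. The Jaccard index was 0.719 over every width, 0.414 up to 10 kb, 0.571 in the better-scored 50%, 0.536 with lists of equal length, 0.532 without regions that hold smaller ones and 0.537 without chromosomes X and Y. Spearman's rho was 0.944 over every width, 0.848 up to 10 kb, 0.935 with at least 50% coverage required, 0.898 in the better-scored 50%, 0.918 with lists of equal length or merging over all 5 lists, 0.917 without regions that hold smaller ones, 0.916 with gaps up to 1 kb joined, 0.925 without regions up to 1 kb and 0.920 without chromosomes X and Y. The share of shared regions in all 3 other lists was 79.8% over every width, 34.1% up to 10 kb and 41.9% with at least 50% covered. The share touching H4ac was 31% over every width, 2.63% up to 10 kb, 5.38% in the better-scored 50%, 11.6% merging over all 5 lists, 6.17% without regions that hold smaller ones and 15.8% with H4ac of either library. It was 2.61%, 3.25% and 13.9% in merged regions up to 10 kb, of 10 to 30 kb and of 30 to 100 kb. The cause of the other moves was not tested. The count of one list minus the other, and leaving out narrow regions or chromosomes X and Y, were chosen after seeing the data. Read depth is unknown, so whether a poorly scored region missing from 1 list lay just under a threshold cannot be told from these files.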

Other observations

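Regions up to 1 kb had more members in the 480 min list alone than in the list with the delay alone, opposite to the wider ones. Of 78 merged regions of that width, 24 were shared, 38 were in the 480 min list alone and 16 in the list with the delay alone. A run of 35 of them lay at chr11:3032011-3099190, with 8 shared, 22 in the 480 min list alone and 5 in the list with the delay alone. These were 100 to 790 bp wide, and the run was picked out after its values were seen. Counted as listed regions rather than merged ones, the unstimulated list had 31 in this run, the 120 min list 24 and the 240 min list 13. The 480 min list had 33 and the list with the delay 14. All 35 were also touched by at least 1 of the 30 libraries for other targets. Both late lists had a far wider region over the run, chr11:3025081-5988210 at 480 min (2963130 bp) and chr11:3025231-5992510 with the delay (2967280 bp).

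The mice were female, yet each list held regions on chromosome Y. The 480 min list had 2, of 830 and 810 bp, at ranks 51 and 44 by score. The list with the delay had 1 of 140 bp, chrY:2638191-2638330, with the top score of that list, 5.2061. The top score of the 240 min list was also on chromosome Y, 3.0134 over 480 bp. At chrX:166432011-166432710, the shared region with the largest difference in rank, all 8 H4ac libraries and 6 of the 7 Pol II libraries had a region. What produced these regions was not tested.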
